A study of Canis lupus familiaris with 17 samples.

Results

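The extracellular matrix, adhesion and cell junction transcripts of scribble-silenced MDCK cells, a canine kidney epithelial line, were examined across 3 populations. Members were selected on the study's own fold changes between these populations and on their gene names, as all transcripts on the study's 2 lists of differing transcripts whose gene name began with Col, Lam, Itg, Cdh, Pcdh, Mmp, Timp, Adam, Cldn, Tjp, Dsc, Dsg, Gjb, Gja, Fbln, Sdc or Ceacam. This gave 35 of the 21571 transcripts measured: 23 from the list of scribKD against control cells (the knock-down list), 12 of which were also on the list of scribRES against scribKD cells (the resistance list), and 12 from the resistance list only. They carried 34 gene names, since Timp3 was represented by 2 transcripts of 1 gene, and none was a protocadherin, a syndecan or a Gja connexin. Because the lists hold transcripts that had already differed, the scribKD against control and scribRES against scribKD values below describe the members and test nothing about them.

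All 3 populations carried the same tetracycline-inducible scribble shRNA in MDCK-II cells. Control cells were the scribKD line without tetracycline (0 µg/ml), scribKD cells were the same line given 10 µg/ml tetracycline at plating, and scribRES cells were a population that had come through prolonged culture in tetracycline, was expanded without it, and again received 10 µg/ml at plating. The line is therefore its own control, no group without the shRNA or with tetracycline alone was included, and scribRES is a single selected population. RNA was harvested 67 h after plating 1300000 cells per dish. There were 6 control, 6 scribKD and 4 scribRES libraries, 2 per population in each of experiments 1, 2 and 3, with scribRES absent from experiment 1. Where 6 values are given below they run through experiments 1, 2 and 3, 2 libraries each, and 4 scribRES values run through experiments 2 and 3. The labels do not say whether the 2 libraries of an experiment came from separate cultures. The paper's figure legend counts 3 biological replicates of scribKD cells with or without tetracycline and 2 of scribRES cells, the numbers of experiments here. The paper's methods instead state at least 4 replicates in each condition, which is reached only by counting libraries. By the legend's count the experiment is the biological replicate, whereas the tests here took each library as a replicate. P-values therefore measure the spread between libraries. In comparisons of experiments this is only the spread between the 2 libraries of an experiment, which may be technical.

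Epithelial cells are held together by tight junctions, which seal the space between cells and set which ions pass, by cadherin-based adherens junctions and desmosomes, and by gap junctions built from connexins. They rest on a basement membrane of type IV collagen and laminin, which they bind through integrins, and secreted proteases and their inhibitors remodel the matrix around them. Scribble is a polarity protein that sits at the lateral membrane near these junctions.

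Values are RPKM (reads scaled to transcript length and to the library's total of mapped reads), so levels can be compared between transcripts per unit length. Library totals ran from 12612664 to 54644201 reads, the latter summed over the 2 runs of 1 control library. Members were covered by 1 read (Cdh16) to 49228 reads (Col17a1) per library, and 29 of 35 had at least 100 reads in every library. Mean levels of the members had a median of 35.3 RPKM in control, 41.7 in scribKD and 30.8 in scribRES cells. Scrib itself averaged 28.9 RPKM in control, 12.9 in scribKD and 13.3 in scribRES cells. Of the kidney epithelium markers, Krt19 averaged 1470 RPKM and Pax8 47.7 in control cells, but Krt7 was at 2.84, and 4 of 10 symbols on that list, beside the member Cdh16, could be matched. Of the mesenchyme markers 2 of 14 could be matched, and Vim was abundant at 3660 RPKM in control, 1530 in scribKD and 1840 in scribRES cells, Vwf of endothelium was at 0 in control cells, and none of 7 immune markers could be matched.

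The experiments stood apart from each other, and this bears on every result. In 17 of 35 members the highest of the 6 control libraries was more than 2 times the lowest, and in 6 it was more than 4 times. The widest was Col12a1 at 32.7 times. Comparisons were therefore also made inside each experiment, asking whether both libraries of 1 population lay beyond both libraries of the other in every experiment that held them. In cultures, a transcript made by fewer cells and a transcript made at a lower level per cell cannot be told apart.

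Gene names came from the 2 lists, which took them from mouse orthologues, and 34 of the 306 transcripts on both lists were named differently on each. NM_001145151.1 is named Col5a2 on the resistance list, but the RefSeq gene table gives this accession to BMPR1B, a BMP receptor. It was kept as a member by the rule and is called by its identifier here. Among other members, only Col9a2, which is on both lists, had its name checked in this way, and it matched. The names of Adamts10, Cdh17, Col4a1, Col4a2, Col5a1, Fbln5, Fbln7, Gjb5, Itga1, Itgb6 and Lamb1 rest on the resistance list alone and were not checked. Dsg3 and Dsc3 carry their names on the knock-down list and other names on the resistance list, and are named with that limit.

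Within every experiment, 11 of 35 members were higher in both scribKD libraries than in both control libraries, 9 were lower and 15 were mixed. Among transcripts above 5 RPKM in all libraries of a population, the same rule held in either direction for 35.3% of all 10412 and for 15 of 27 members, which the choice of members from this contrast sets. Of 4 tight junction members 2 separated (Cldn2 and Tjp3), and of 4 Cdh cadherins 2 (Cdh24 and the low Cdh16), all lower in scribKD cells. The desmosomal cadherin Dsg3 was higher. The collagens, laminin and fibulin that separated were also higher, apart from Col18a1. In a limma fit, where a transcript was called if its fold change exceeded 0.5 on the log2 scale in either direction with a Benjamini-Hochberg adjusted p under 0.05, 6 of 20 members tested were called, 2 higher (Lamc1 and Fbln5) and 4 lower (Cdh24, Itgb8, Mmp15 and Tjp3), against 9.52% of all transcripts. The fit tested only transcripts whose libraries stayed within 2-fold in 1 population, which left out 15 members, Cldn2, Col12a1 and Timp3 included. With experiment as a block 8 were called, Ceacam1 (log2 0.51) and Col9a2 (0.68) being gained. The share of all transcripts called in that block fit is not given here, so the 8 cannot be set against it. With the block and without that limit, an alternative chosen after seeing the data, 15 of 27 members were called, 8 higher and 7 lower, against 12.2%.

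**Figure D1:**
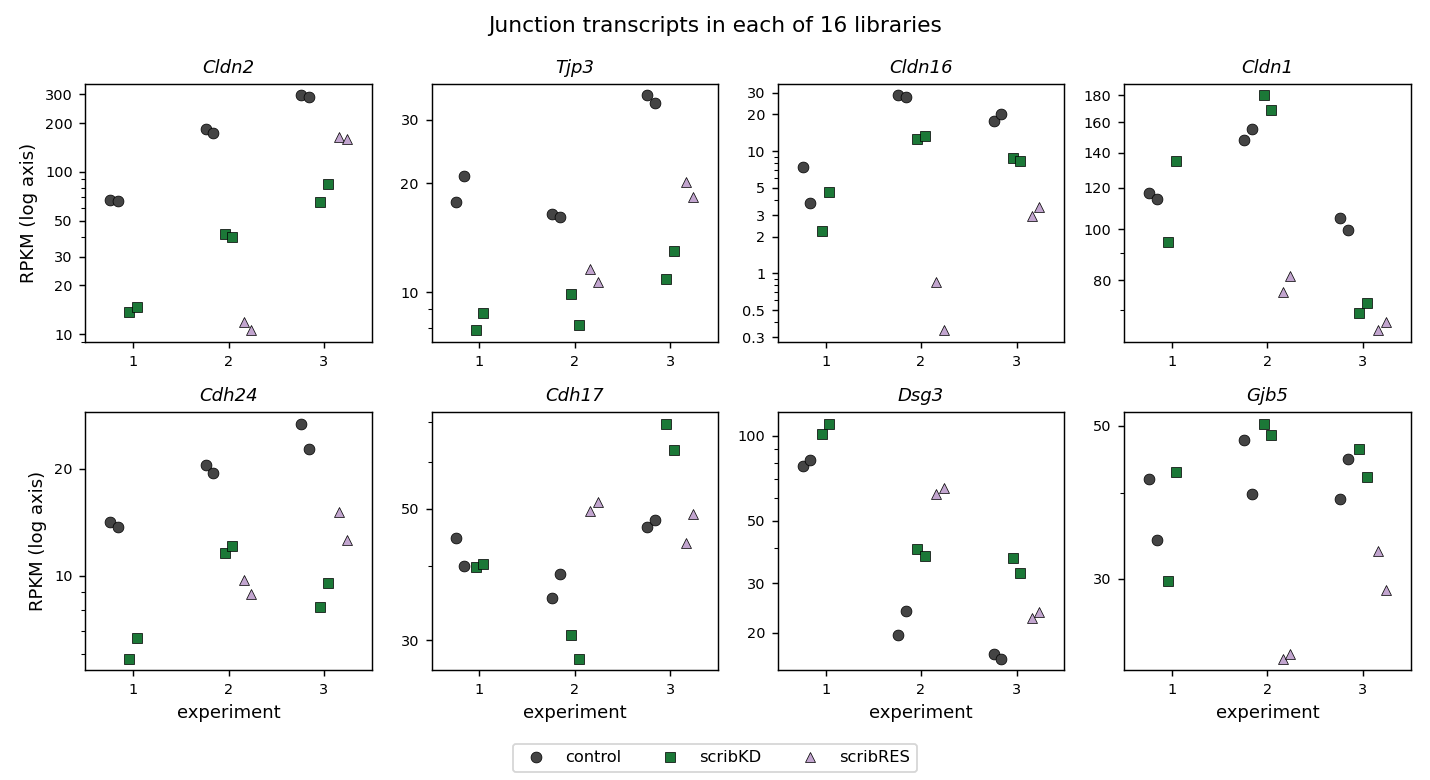
RPKM (log axis, a different range in each panel) of 8 junction transcripts in each library, by experiment. Circles are control, squares scribKD and triangles scribRES libraries, 2 per population and experiment. Cldn2 and Tjp3 lay lower in scribKD than in control libraries in all 3 experiments, and Cldn2 in scribRES changed from 11.9 and 10.6 RPKM in experiment 2 to 165 and 160 in experiment 3.

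On the mean log2(RPKM + 0.1) scale over the 3 experiments, Cldn2 lay furthest below control in scribKD cells of all members, at -2.11. By ratio of means in a single experiment, Adamts1 was lower in experiment 2 (0.167) and Cdh16 in experiment 3 (0.164). Cldn2 encodes the claudin that forms cation-permeable pores in leaky epithelia such as the proximal tubule. Its control libraries held 67.6, 66.6, 185, 173, 296 and 288 RPKM, its scribKD libraries 13.8, 14.8, 41.7, 40.0, 65.3 and 84.6, and its scribRES libraries 11.9, 10.6, 165 and 160. The level climbed from experiment 1 to 3 in both control and scribKD cells, yet the ratio of scribKD to control means stayed at 0.213, 0.228 and 0.257. The scribRES libraries fell on different sides of scribKD in the 2 experiments, at 0.276 times the scribKD mean in experiment 2 and 2.17 times in experiment 3, although they were below control in both. Every control library exceeded the scribKD and scribRES libraries of its own experiment.

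Tjp3 encodes ZO-3, a scaffold under the tight junction. Control libraries held 17.8, 20.9, 16.5, 16.2, 35.0 and 33.3 RPKM, scribKD libraries 7.87, 8.75, 9.89, 8.14, 10.9 and 13.0, and scribRES libraries 11.6, 10.7, 20.2 and 18.4. No scribKD library reached the lowest control library, and within each experiment scribRES lay between the other two. Cldn16, a claudin of the thick ascending limb needed for magnesium reabsorption, averaged 17.6 ± 10.3 RPKM (SD, n = 6) in control, 8.31 ± 4.34 (n = 6) in scribKD and 1.90 ± 1.54 (n = 4) in scribRES cells, and was lower in scribRES than in either other population in both experiments. Its scribRES mean was 0.0458 times the scribKD mean in experiment 2 and 0.376 times in experiment 3, with as few as 4 reads in a library. Cldn1, a barrier-forming claudin, averaged 123 ± 23 RPKM in control, 120 ± 48.5 in scribKD and 72.0 ± 8.06 in scribRES cells, so that it differed little between control and scribKD on average and all 4 scribRES libraries, at most 81.5, lay below the lowest control library of 99.7. Cldn1 and Cldn16 are neighbouring genes in the RefSeq gene table, with 0 protein-coding genes between them. All 4 tight junction members were lower in scribRES than in control cells within both experiments.

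Cadherins are calcium-dependent adhesion proteins. Cdh16, the kidney-specific Ksp-cadherin, held 0.653, 0.771, 2.67, 2.45, 6.55 and 5.76 RPKM in control, 0.174, 0.214, 0.733, 0.791, 0.895 and 1.13 in scribKD and 0.151, 0.0286, 1.98 and 1.28 in scribRES libraries. It was low throughout, down to 1 read, and was below 5 RPKM in some library of every population, so no fit tested it. Cdh24, a classical-type cadherin, averaged 19.6 ± 5.03 RPKM in control, 9.0 ± 2.58 in scribKD and 11.6 ± 2.85 in scribRES cells, with scribKD at 0.448, 0.595 and 0.358 times control in experiments 1, 2 and 3. Cdh3 encodes P-cadherin. It stayed in a narrow range, 49.3 ± 3.67 RPKM in control, 40.0 ± 5.49 in scribKD and 37.9 ± 1.06 in scribRES cells, with every scribRES library below every control library.

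Cdh17, LI-cadherin of intestinal epithelium and a resistance-list member, held 44.7, 40.0, 35.3, 38.8, 46.5 and 47.9 RPKM in control, 39.8, 40.4, 30.6, 27.9, 69.6 and 62.9 in scribKD and 49.5, 51.3, 43.7 and 49.1 in scribRES libraries. In experiment 2 both scribRES libraries were above both control libraries, at 1.36 times the control mean, and both scribKD libraries were below, at 0.791 times. In experiment 3 scribRES and control overlapped and scribKD was above both.

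The desmosomal cadherins desmoglein 3 and desmocollin 3, which join cells of stratified epithelia, were higher in scribKD cells on average. Dsg3 held 77.9, 82.0, 19.6, 23.9, 16.8 and 16.2 RPKM in control, 101, 110, 39.6, 37.3, 36.8 and 32.6 in scribKD and 61.9, 65.4, 22.6 and 23.8 in scribRES libraries. It was higher than control in both other populations in every experiment, with scribRES at 1.66 times scribKD in experiment 2 and 0.668 times in experiment 3. Dsc3 ranged from 3.75 to 10.1 RPKM in control, 6.82 to 13.6 in scribKD and 4.16 to 8.92 in scribRES libraries. Its scribRES libraries were below both scribKD libraries in each experiment and overlapped control in experiment 2.

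Between scribRES and scribKD cells, 2 of 26 tested members passed the limma thresholds against 1.46% of all transcripts, both lower in scribRES cells. With experiment as a block 10 were called, 7 higher and 3 lower, against 7.32%. The calls gained were NM_001145151.1 (log2 1.21), Itga1 (0.70), Itgb6 (0.68), Itgb8 (0.65), Fbln7 (0.60), Col4a2 (0.52), Tjp3 (0.50) and Cldn1 (-0.63). Without the block the count was 0 to 4 when 1 library was left out. One of the lower members was Gjb5, a connexin of gap junctions in stratified epithelia. It held 41.8, 34.2, 47.7, 39.8, 39.1 and 44.7 RPKM in control, 29.8, 42.9, 50.3, 48.5, 46.3 and 42.2 in scribKD and 23, 23.4, 32.9 and 28.9 in scribRES libraries. Control and scribKD libraries overlapped widely, and scribRES lay below every control library.

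Integrins bind the cell to its matrix, and all 3 members were higher in scribRES than in scribKD cells in both experiments. Of all 35 members 9 were higher in this way and 7 lower. Of the 30 members passing 5 RPKM 14 separated, 9 higher and 5 lower, against 41.7% of all transcripts passing it. Itgb8, a beta subunit that binds latent TGF-beta, averaged 87.7 ± 15.2 RPKM in control, 48.7 ± 5.93 in scribKD and 73.3 ± 15.4 in scribRES cells. No scribKD library (39.9 to 57.2) reached any control (64.7 to 108) or scribRES library (58.7 to 90.0), and scribRES stayed below control within each experiment. Itgb6, the epithelial beta subunit of a further TGF-beta-binding integrin, averaged 140 ± 29.5, 143 ± 56.0 and 171 ± 12.4 RPKM, and scribRES was 1.56 and 1.25 times control in experiments 2 and 3. Itga1, a subunit of a collagen receptor, averaged 6.33 ± 2.86, 7.21 ± 3.69 and 7.95 ± 1.30 RPKM in the same order. Its scribRES to control ratios were 1.74 and 1.73.

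**Figure D2:**
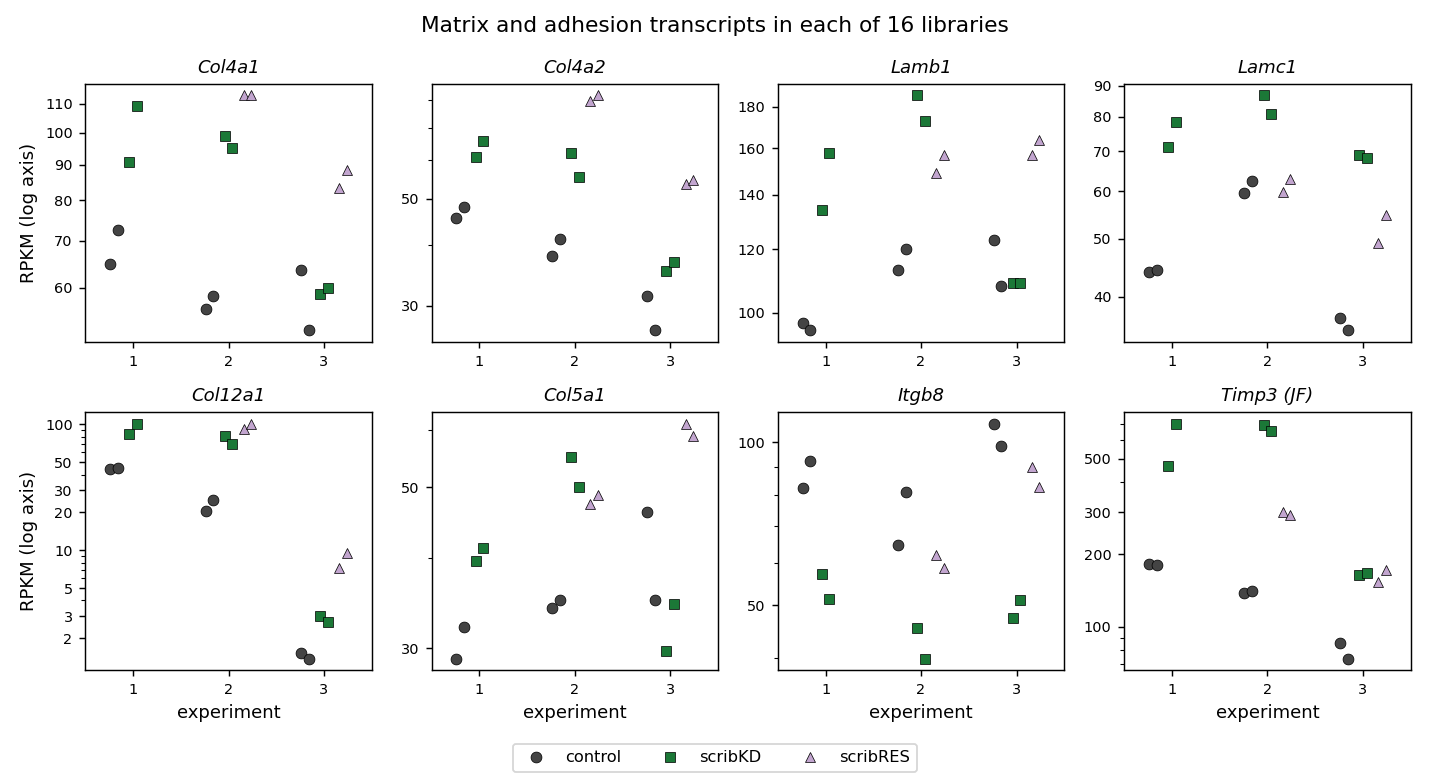
RPKM (log axis, a different range in each panel) of 8 matrix and adhesion transcripts in each library, by experiment. Circles are control, squares scribKD and triangles scribRES libraries. Col4a1 and Col4a2 lay higher in scribRES than in control libraries in both experiments, Itgb8 lay lowest in scribKD, and Col12a1 fell in all 3 populations in experiment 3.

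Basement membrane members were higher than control in scribKD or scribRES cells, with one exception. Col4a1 and Col4a2, which encode the 2 chains of the major type IV collagen and are adjacent genes with 0 protein-coding genes between them, averaged 61.3 ± 7.26 and 38.5 ± 8.21 RPKM in control cells. Col4a1 averaged 85.3 ± 21.0 RPKM in scribKD and 99.5 ± 15.8 in scribRES cells, and its scribKD libraries were above control in experiments 1 and 2 but overlapped it in experiment 3. Col4a2 averaged 52.8 ± 13.3 and 67.4 ± 15.4 RPKM and was higher than control in both populations in every experiment. Lamc1, the laminin gamma 1 chain, averaged 47.1 ± 11.5 RPKM in control, 75.8 ± 7.46 in scribKD and 56.7 ± 6.06 in scribRES cells, and was the only member with every scribKD library above every control library, which held for 6.01% of all transcripts tested. Lamb1, the laminin beta 1 chain that pairs with it, averaged 109 ± 11.4, 145 ± 32.8 and 157 ± 6.13 RPKM, and its scribKD to control ratio was 1.52, 1.55 and 0.946 in experiments 1, 2 and 3. Col18a1, the source of endostatin, was the exception at 26.9 ± 8.93, 18.3 ± 5.53 and 24.9 ± 8.79 RPKM, below control within each experiment in scribKD and scribRES cells alike. Col17a1, a transmembrane collagen of the hemidesmosome, was the most abundant member by median in control cells, at 313 ± 71.9, 415 ± 61.6 and 316 ± 95.4 RPKM. It was above control in every experiment in scribKD cells and mixed in scribRES cells.

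Of the other collagens, Col12a1, a fibril-associated collagen, held 44.1, 45.2, 20.4, 25.2, 1.52 and 1.38 RPKM in control, 83.5, 101, 80.7, 69.6, 2.99 and 2.68 in scribKD and 92.4, 100, 7.19 and 9.47 in scribRES libraries. The order control below scribKD below scribRES held in experiments 2 and 3 although the level fell by over an order of magnitude, with scribRES at 4.22 and 5.74 times control. Col5a1, a chain of the type V collagen that regulates fibril assembly, averaged 35.3 ± 5.89, 41.7 ± 9.49 and 54.0 ± 6.98 RPKM, and all 4 scribRES libraries, at least 47.4, were above the highest control library of 46.3. Col9a2, a collagen best known from cartilage, averaged 13.1 ± 5.45, 20.1 ± 4.99 and 17.4 ± 3.40 RPKM and was above control in both populations in every experiment.

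NM_001145151.1 held 4.09, 5.56, 4.23, 4.67, 1.65 and 1.68 RPKM in control, 6.76, 6.30, 4.78, 5.12, 2.40 and 1.97 in scribKD and 9.37, 9.99, 5.98 and 6.31 in scribRES libraries. Within each experiment the scribRES libraries were above those of both other populations.

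Fibulins are glycoproteins of elastic fibres and basement membranes, and all 3 were higher in scribRES than in control cells within both experiments. Fbln2 held 0.860, 1.00, 0.861, 0.919, 2.23 and 2.02 RPKM in control, 2.71, 2.65, 1.67, 2.15, 4.69 and 4.07 in scribKD and 3.32, 3.1, 3.93 and 3.78 in scribRES libraries. It was higher than control in every experiment, at 53 to 405 reads per library. Fbln5 averaged 7.72 ± 1.69, 11.2 ± 1.78 and 14.8 ± 3.65 RPKM. Its scribKD to control ratio was 1.96, 1.57 and 1.04 in experiments 1, 2 and 3, and the libraries overlapped in experiment 3. Fbln7 held 17.3, 22.3, 11.1, 11.2, 21.4 and 19.4 RPKM in control, 20.2, 17.2, 13.0, 13.1, 14.9 and 17.5 in scribKD and 20.7, 19.0, 24.1 and 24.7 in scribRES libraries. The scribRES libraries were above control and scribKD within each experiment, and the scribKD libraries lay on both sides of control.

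The matrix proteases were lower than control where they separated, and the inhibitor was higher. Timp3, which blocks metalloproteinases and ADAM proteases and binds to the matrix, lay furthest above control in scribKD cells of all members on the mean log2(RPKM + 0.1) scale over the 3 experiments, by 1.66 and 1.68 in its 2 transcripts. By its transcript JF508171.1 it held 182, 181, 138, 141, 85.7 and 73.5 RPKM in control, 466, 699, 689, 656, 164 and 167 in scribKD and 300, 293, 154 and 172 in scribRES libraries. The scribKD to control ratio was 3.21, 4.82 and 2.08, and scribRES was 2.13 and 2.04 times control, so that scribRES was below scribKD in experiment 2 and level with it in experiment 3. The longer transcript XM_538410.4 held 140, 141, 104, 111, 64.1 and 56.4 RPKM in control, 383, 557, 531, 512, 123 and 128 in scribKD and 234, 230, 125 and 137 in scribRES libraries, with ratios to control of 3.34, 4.85 and 2.08 in scribKD cells. Both transcripts belong to 1 gene and are not independent observations, although each is counted as a member in every count given.

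Mmp15, a membrane-type matrix metalloproteinase, held 21.9, 17.9, 17.6, 18.5, 17.1 and 13.7 RPKM in control, 8.5, 7.52, 9.18, 8.21, 7.19 and 7.58 in scribKD and 8.63, 7.86, 11.6 and 12 in scribRES libraries. Neither of the populations with tetracycline overlapped control in any library. Adamts1, a secreted protease that cleaves proteoglycans, held 3.56, 2.58, 25.0, 23.9, 4.10 and 4.31 RPKM in control, 0.934, 1.44, 4.14, 4.03, 1.89 and 2.03 in scribKD and 0.749, 0.991, 2.35 and 1.58 in scribRES libraries. Control libraries of experiment 2 stood apart, and both other populations were below control in each experiment. Adamts9, a further proteoglycan-cleaving protease, averaged 24.4 ± 10.7, 14.7 ± 5.03 and 13.7 ± 2.40 RPKM and was likewise below control in each experiment. Adamts10, linked to fibrillin microfibrils and on the resistance list only, held 2.01, 1.93, 3.5, 3.08, 3.68 and 3.73 RPKM in control, 2.52, 2.63, 2.92, 3.46, 4.30 and 4.13 in scribKD and 1.87, 1.84, 3.34 and 2.66 in scribRES libraries, lowest in scribRES within both experiments. Ceacam1, an adhesion receptor of the immunoglobulin family, averaged 47.0 ± 13.6, 67.2 ± 18.8 and 49.1 ± 6.94 RPKM. It was above control within each experiment in both populations.

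**Figure D3:**
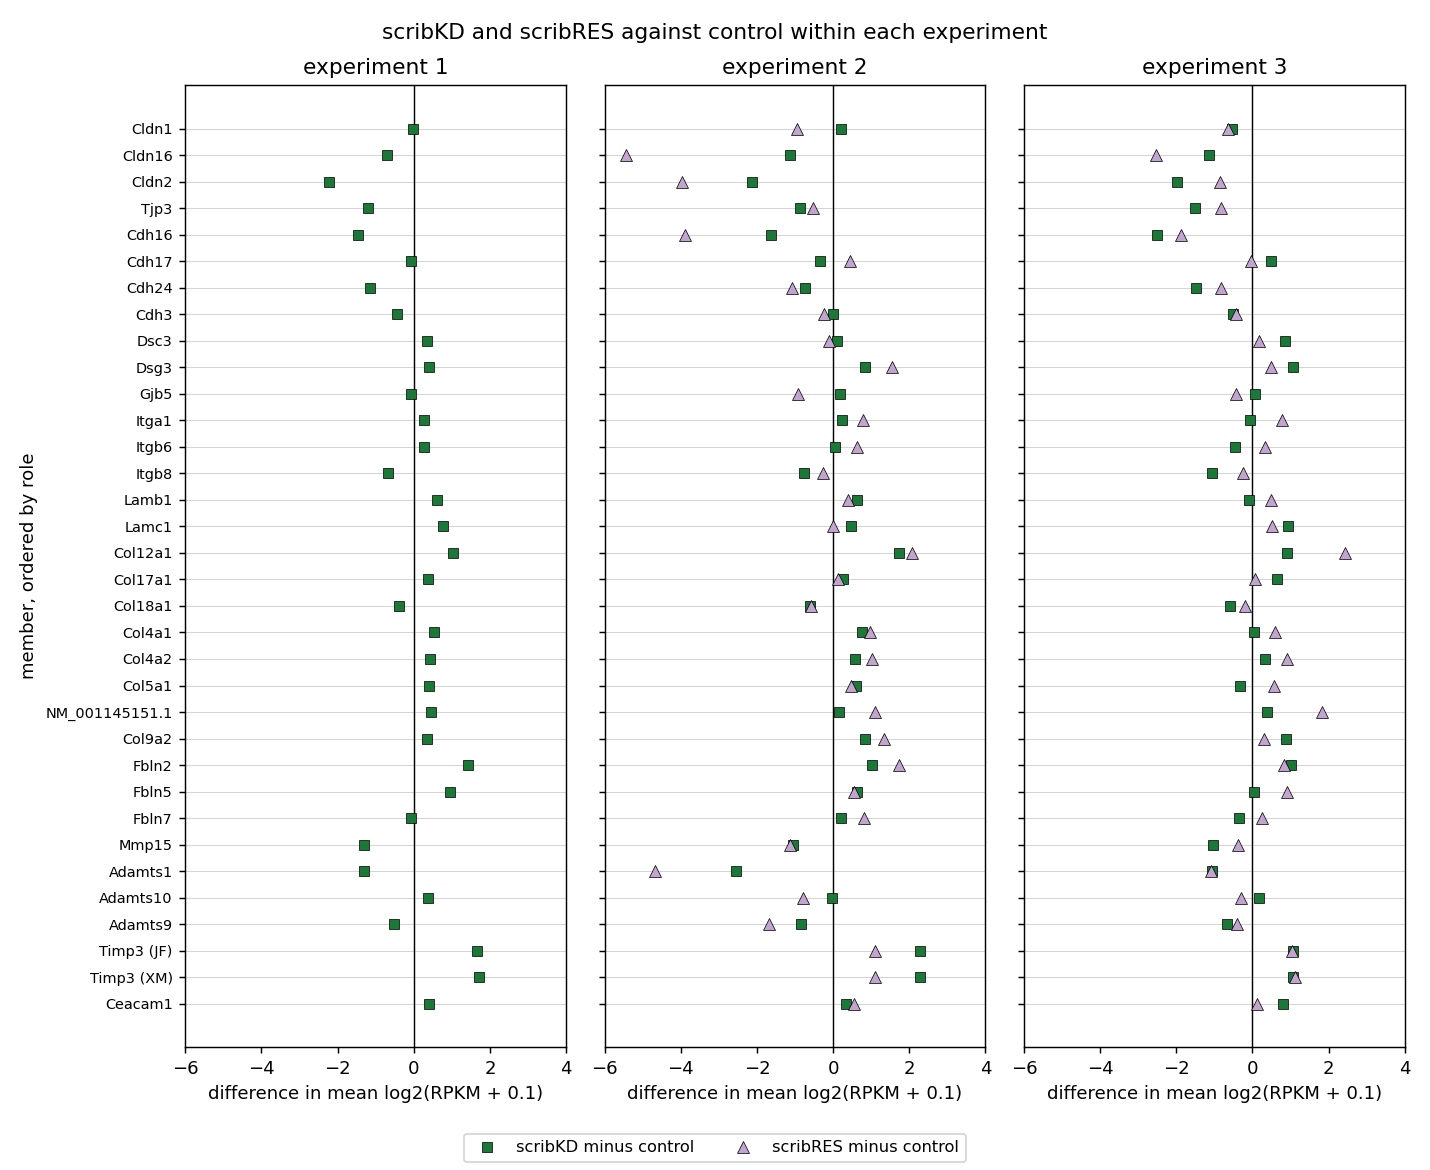
Differences from control of the mean log2(RPKM + 0.1) of 34 of the 35 members in each experiment, ordered by role. Squares are scribKD minus control and triangles scribRES minus control, each the difference of 2-library means, and points left of 0 are below control. Tight junction members in scribRES lay below 0 in both experiments, and Cldn16, Cldn2, Cdh16 and Adamts1 in scribRES lay further below 0 in experiment 2 than in experiment 3.

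Retention in scribRES cells was described for the 23 knock-down-list members as the scribRES minus control difference divided by the scribKD minus control difference, on log2(RPKM + 0.1) means over experiments 2 and 3. At 1 the scribRES level equals scribKD and at 0 it equals control. The median was 0.87, and 18 of 23 members were at 0.5 or more, nearer scribKD than control. In 10 of the 23 the value was above 1, so scribRES lay further from control than scribKD did. These were 7 of the 12 members lower in scribKD and 3 of the 11 higher. The 12 members lower in scribKD had a median of 1.27, with 11 at 0.5 or more, and the exception was Itgb8 at 0.28. The 11 members higher in scribKD had a median of 0.64, with 7 at 0.5 or more, and Dsc3 (0.07), Col17a1 (0.23) and Lamc1 (0.38) were among those below. In experiment 2 alone the medians were 1.65 for the members lower in scribKD and 0.49 for those higher, with 10 of 12 and 5 of 11 at 0.5 or more. In experiment 3 alone they were 0.59 and 0.46, with 8 of 12 and 5 of 11. Over all 23 the median was 1.21 in experiment 2 and 0.57 in experiment 3, and between the 4 same-numbered sets of libraries it varied with an SD of 0.40. Both differences contain the same control libraries, so the ratio is a description. It is unstable where scribKD and control were level, as for Cldn1 at 4.80.

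Between scribRES and control cells directly, 16 of 35 members were higher and 14 lower in both libraries of both experiments, and 5 were mixed. Of members passing 5 RPKM this was 25 of 29, 15 higher and 10 lower, against 44.1% of all 10629 transcripts, 24.5% higher and 19.6% lower. Of the 12 tight junction, cadherin, desmosome and connexin members 8 were lower, 1 was higher (Dsg3) and 3 were mixed, and of the 12 collagens, laminins and fibulins without NM_001145151.1, 9 were higher, 1 was lower (Col18a1) and 2 were mixed. Of the 3 integrins 2 were higher and 1 was lower (Itgb8). All 3 ADAMTS proteases and Mmp15 were lower. In limma, 10 of 25 tested members were called, against 7.89% of all transcripts. Those higher were Col4a1 (log2 0.69 ± 0.12 SE), Col4a2 (0.81 ± 0.19), Col5a1 (0.62 ± 0.13), Lamb1 (0.53 ± 0.09), Fbln5 (0.92 ± 0.20) and NM_001145151.1 (1.20 ± 0.35). The names of these 6 come from the resistance list alone. Those lower were Mmp15 (-0.83 ± 0.15), Cldn1 (-0.76 ± 0.14), Cdh24 (-0.74 ± 0.21) and Gjb5 (-0.61 ± 0.12). With experiment as a block 16 were called, 10 higher and 6 lower, against 14.7%. The calls gained were Timp3 (1.06 and 1.11 in its 2 transcripts), Col9a2 (0.83), Itga1 (0.79), Fbln7 (0.54), Adamts9 (-1.04) and Tjp3 (-0.68), and Lamb1 (0.44) then missed the fold threshold. Without scribRES replicate 3 or 4 Cdh24, Col4a2 and NM_001145151.1 lost their calls, as did Lamb1 without control replicate 1 or 2 and Cdh24 and NM_001145151.1 without several other single libraries. This comparison was on neither list, but it shares its control libraries with the contrast behind the knock-down list and its scribRES libraries with that behind the resistance list. Its calls are therefore not independent of how members were chosen.

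Levels were also compared between experiments, a contrast that the 2 lists did not hold. The paper states a filter on replicates within 2-fold, but how it was applied is not known. Col12a1, on both lists, ranged from 1.38 to 45.2 RPKM in control, 2.68 to 101 in scribKD and 7.19 to 100 in scribRES libraries. The paper tested these libraries, so the choice of members was not free of the spread between experiments. Counts of members against all transcripts are therefore not independent of how members were chosen. Averaged over the 3 populations, 13 of 30 members tested differed between experiment 3 and experiment 2 by limma (called as above), against 18.6% of all transcripts. Of these 3 rose and 10 fell, and over all transcripts 10.2% rose and 8.42% fell. Col12a1 fell by 4.03 on the log2 scale (SE 0.08, limma adjusted p = 1e-11). Timp3 fell by 1.23 and 1.24 (SE 0.08 and 0.07, limma adjusted p = 6.9e-08 and 4.1e-08) in its 2 transcripts. NM_001145151.1, Dsc3, Cldn1, Dsg3, Col17a1 and Col4a2 were among the others and fell by 0.57 to 1.05. Cldn2 rose by 1.80 (SE 0.06, limma adjusted p = 4.3e-10), Tjp3 by 0.75 (SE 0.07, adjusted p = 9.1e-07) and Col18a1 by 0.63 (SE 0.06, adjusted p = 2.7e-06). The average covers unequal changes between populations. For Cldn2 the mean went from 179 to 292 RPKM in control, from 40.9 to 75.0 in scribKD and from 11.3 to 162 in scribRES cells. What differed between the experiments is not given in the labels.

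The scribKD minus control difference itself differed between experiments 2 and 3 in 14 of 30 members tested (limma interaction, adjusted p under 0.05 without a fold threshold), against 9.8% of all transcripts. The difference was lower in experiment 3 for 11 members and higher for 3, and over all transcripts for 5.59% and 4.21%. Over all transcripts 43.0% of these calls were higher, which became 52.6% under median-ratio scaling, when the members' calls were 3 higher and 11 lower. Timp3 moved most. Its excess in scribKD over control was smaller in experiment 3, with a change of -1.22 on the log2 scale in XM_538410.4 (SE 0.18, limma adjusted p = 0.0040) and of -1.21 in JF508171.1 (SE 0.19, adjusted p = 0.0059). Col5a1, Col4a1 and Lamb1 also had a lower difference in experiment 3, with changes of -0.93, -0.72 and -0.71. Their scribKD to control ratios went from 1.52, 1.69 and 1.55 in experiment 2 to 0.79, 1.02 and 0.946 in experiment 3. Both Col5a1 scribKD libraries of experiment 3 lay below both control libraries. In Cdh17 the difference was 0.82 higher in experiment 3 (SE 0.12, limma adjusted p = 0.0040). The count rested on single libraries, since it was 9 without control replicate 4, 8 without control replicate 5, 7 without scribKD replicate 3 and 5 without scribKD replicate 5. Cldn2, whose level changed most upward, was not among the calls (interaction p above the threshold), its 2 ratios to control being 0.228 and 0.257.

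**Figure D4:**
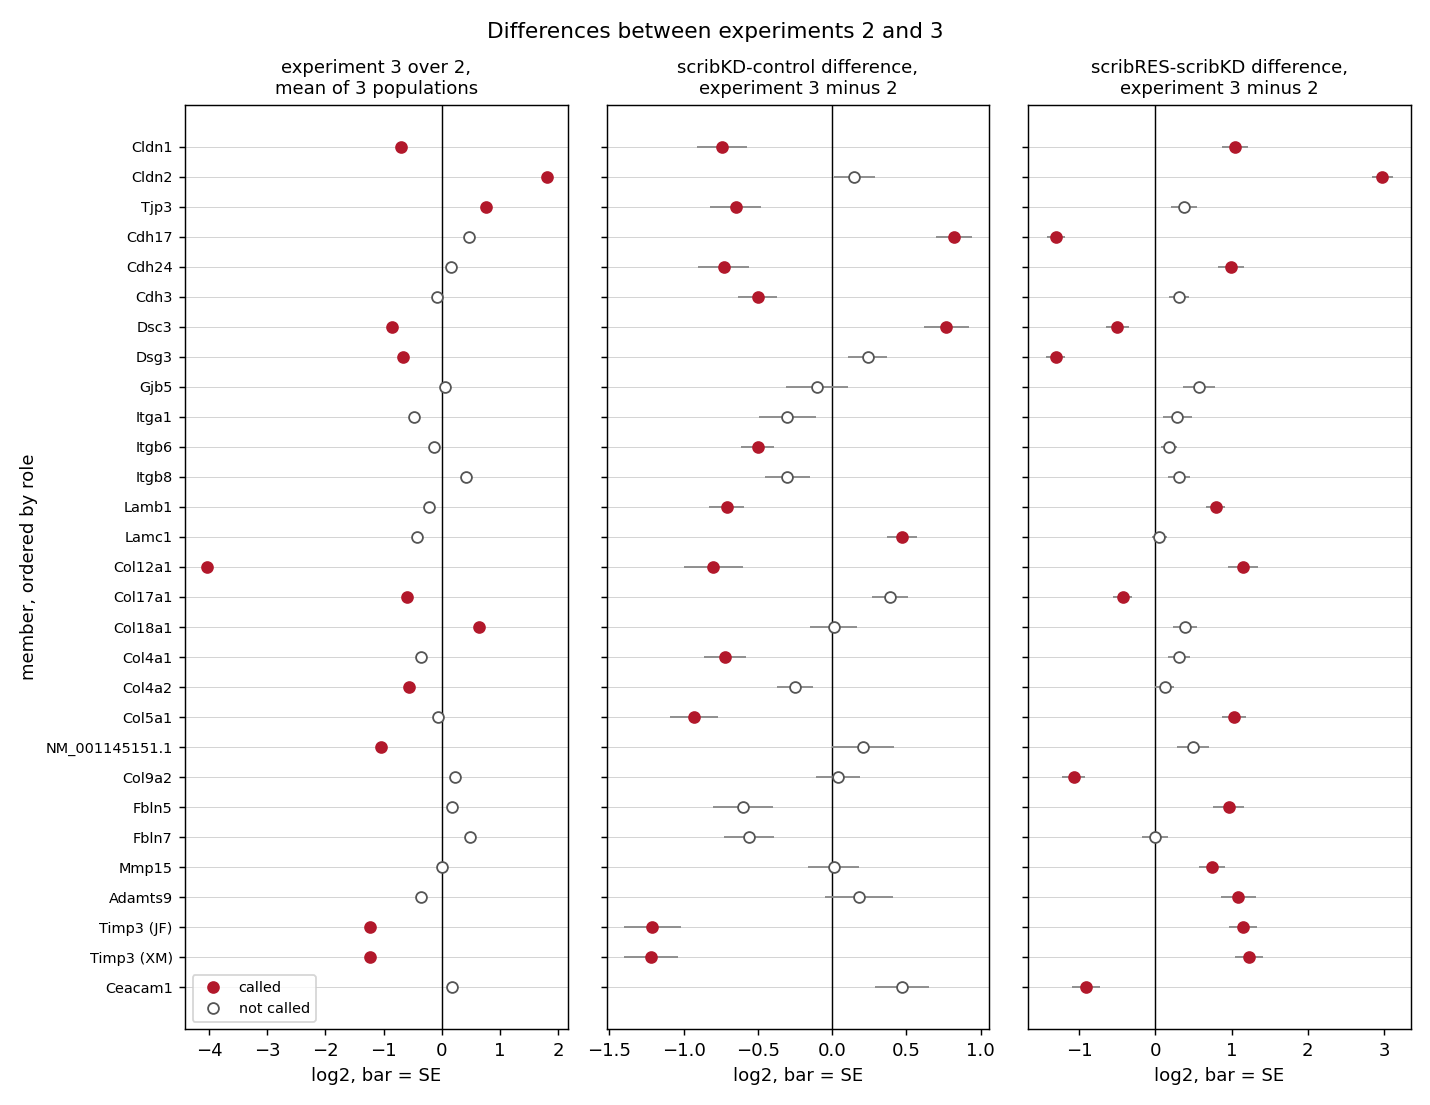
limma estimates with SE bars for the members tested, apart from 1 not shown, ordered by role. The left panel shows experiment 3 over experiment 2 averaged over the 3 populations, the middle panel the change of the scribKD minus control difference, and the right panel the change of the scribRES minus scribKD difference. Filled points were called, Col12a1 lies lowest in the left panel at -4.03, Cldn2 lies highest in the right panel at 2.98, and each panel has its own log2 axis.

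The scribRES minus scribKD difference changed between the experiments in 18 of 30 members, against 26.8% of all transcripts. It was higher in experiment 3 for 12 and lower for 6, and over all transcripts for 15.9% and 10.9%. Over all transcripts 59.4% of these calls were higher, which became 45.6% under median-ratio scaling, when the members' calls were 11 higher and 6 lower. Cldn2 had the largest change, 2.98 higher in experiment 3 (SE 0.14, limma adjusted p = 1.2e-07). Cdh17 and Dsg3 moved the other way, by -1.30 (SE 0.12, adjusted p = 3.9e-05) and -1.31 (SE 0.13, limma adjusted p = 7.6e-05). Col9a2, Ceacam1, Dsc3 and Col17a1 also had lower values in experiment 3, whereas Timp3, Col12a1, Adamts9, Cldn1, Col5a1, Cdh24, Fbln5, Lamb1 and Mmp15 were among those with higher ones. Both interactions contain the scribKD libraries with opposite sign, so members called in both are not 2 independent observations. None of the 3 integrins was called here, and Itgb6 alone was called among them for the scribKD minus control difference.

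Other genes of the same structures could be followed only in part, because names were available for 9.3% of transcripts, mostly from the lists of differing transcripts. Tight junction partners had 5 of 16 symbols matched. F11r, the junctional adhesion molecule JAM-A, averaged 216, 143 and 154 RPKM in control, scribKD and scribRES cells, and occludin (Ocln) 33.5, 34.0 and 34.8. Of the tight junction partners tested, 3 of 4 had a scribRES minus scribKD difference that changed between experiments, against 26.8% of all transcripts. The largest change was in cingulin-like 1 (Cgnl1, -2.42 on the log2 scale). Of 4 adherens junction and desmosome partners, desmoplakin (Dsp), which anchors desmosomes to keratin, averaged 41.7, 67.9 and 62.2 RPKM, and Pkp4 76.4, 46.2 and 51.3. Of 4 tested cell-matrix adhesion partners, 1 was called between experiments (the focal adhesion protein Tns1, -0.62 on the log2 scale), against 18.6% of all transcripts. The hyaluronan receptor Cd44 averaged 94.4, 179 and 136 RPKM.

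Matrix proteins outside the member families had 9 of 27 symbols matched. Thrombospondin 1 (Thbs1) averaged 204, 630 and 425 RPKM in control, scribKD and scribRES cells, and biglycan (Bgn) 25.7, 31.6 and 42.1. Between experiments 4 of 5 tested fell, against 8.42% of all transcripts. Tgfbi fell by 3.58, Npnt by 1.73, Vcan by 1.64 and Thbs1 by 0.81 on the log2 scale. Of the cross-linking and proteolysis genes, 9 of 21 were matched. The plasminogen activator Plat averaged 4.68, 16.1 and 11.5 RPKM and the lysyl oxidase Loxl2 92.8, 113 and 153. Of 9 tested in this list, 3 fell between experiments, Lox and Serpine2 among them, against 8.42% of all transcripts. A scribRES minus scribKD difference that changed was found in 4 of the 9, against 26.8%. Among the cell type markers, mean levels of both kidney epithelium and mesenchyme genes were lower in scribKD than in control cells, as in the tight junction members Cldn2, Cldn16 and Tjp3, with Pax8 at 47.7, 28.8 and 33.9 RPKM, and the mesenchyme marker S100a4 was at 74.8, 22.3 and 19.0. Their part in the members' differences was not tested. In 5 further transcripts of the member families, named by the RefSeq gene table alone, the mean level was at most 1.10 RPKM (Gjb2 in control cells).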

How the data were processed

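RNA libraries were made with a kit that does not mark strand, so overlapping and antisense genes cannot be separated. The authors mapped quality-trimmed single reads to CanFam3.1 with TopHat2 2.0.6 (cutadapt 1.0 is also named in the submitters' notes), counted reads over 21571 transcripts placed by BLAT and deposited RPKM values, 1 table per run and 17 runs of 16 libraries. The 2 runs of 1 control library were averaged. How reads matching several transcripts were handled is not given in the sources used here. Whole reads were recovered from the RPKM steps (tolerance 0.001) for depth only, in 18873 transcripts, and 2698 were at 0 throughout.

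The study used a count test, but the files hold RPKM, so limma 3.58.1 (R 4.3.3, intensity trend, two-sided, Benjamini-Hochberg over all tested transcripts) was run on log2(RPKM + 0.1), and fold changes on this scale understate those of low transcripts. Pairs of populations were fitted separately, testing transcripts with every replicate above 5 RPKM and within 2-fold in at least 1 population. Experiment effects and interactions came from 1 fit of 8 population-by-experiment means, testing transcripts with every library of at least 1 population above 5 RPKM. Scripts were tested on simulated data that had no differences between experiments beyond those added for the test. The fits of pairs of populations were therefore not tested under such differences. Replicate numbers come from the labels' experiment and replicate. Deviations from group means correlated in every same-numbered pair (mean r 0.64, 0.44 and 0.39 for control with scribKD, control with scribRES and scribKD with scribRES, lowest 0.13), and as much with the other library of the experiment (0.73, 0.43 and 0.39), so the pairing reflects the experiment.

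Members, gene lists and tests were chosen with earlier results of these data known. Library values are given for the 5 largest rises and falls in scribKD among knock-down-list members, the 4 resistance-list-only members with the largest scribRES minus scribKD difference, and the 3 smallest p of each interaction, and others by mean, range or ratio. From the other lists, up to 4 genes each were to be named by size among those called, and Ocln, Cgnl1 and marker genes were named as well after their values were seen. Authors' fold changes were not used. No sequences or coordinates were printed because no table of the build used by the authors was given here. Individual values of 1 member and of some genes outside the member families are not reported here.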

Additional observations from a re-analysis of the deposited data

Results flagged for a closer look

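Col5a1 in control replicate 5 held 46.3 RPKM against 35.0 in the nearest other control library. This was the 1 value far from its group among 105 groups tested. Chance flags about 1 in 20 groups of independent values. Libraries of the same experiment tended to lie together, so the count cannot be set against that rate.

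The scribKD minus control difference changed between experiments 2 and 3 (experiment 3 minus experiment 2, log2, limma interaction, adjusted p from 0.0040 to 0.034) in 14 members. It was lower in experiment 3 for Timp3 (-1.22 in XM_538410.4 and -1.21 in JF508171.1), Col5a1 (-0.93), Col12a1 (-0.80), Cldn1 (-0.74), Cdh24 (-0.73), Col4a1 (-0.72), Lamb1 (-0.71), Tjp3 (-0.65), Cdh3 (-0.50) and Itgb6 (-0.50). It was higher for Cdh17 (0.82), Dsc3 (0.77) and Lamc1 (0.47).

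The scribRES minus scribKD difference changed in 17 members given here (limma adjusted p from 1.2e-07 to 0.031). It was higher in experiment 3 for Cldn2 (2.98), Timp3 (1.23 in XM_538410.4 and 1.15 in JF508171.1), Col12a1 (1.15), Adamts9 (1.09), Cldn1 (1.04), Col5a1 (1.03), Cdh24 (0.99), Fbln5 (0.96), Lamb1 (0.79) and Mmp15 (0.74). It was lower for Dsg3 (-1.31), Cdh17 (-1.30), Col9a2 (-1.07), Ceacam1 (-0.91), Dsc3 (-0.50) and Col17a1 (-0.43).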

How the results depend on the processing

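The count of members called between experiments 3 and 2 (13) stayed between 13 and 16 under every alternative run. For scribKD over control (6), it became 10 without a filter on low values and 15 with experiment as a replicate block and no limit between replicates (8 with either block under the limit), and leaving out 1 library gave 6 to 8. For scribRES over scribKD (2), it became 0 without a filter, 10 with the experiment block, 8 with replicate number as a replicate block, 11 with the experiment block and no limit, 6 in experiments 2 and 3 only and 1 with all 3 populations in one fit, and leaving out 1 library gave 0 to 4 (0 without scribKD replicate 2, 3, 4 or 5 or any scribRES library, 1 without scribKD replicate 6, 4 without scribKD replicate 1). For scribRES over control (10), both replicate blocks gave 16 and the experiment block without the limit 19, and leaving out 1 library gave 7 to 10. Cdh24 lost its call without control or scribRES replicate 3, 4 or 6 (log2 -0.63 to -0.79), Col4a2 without scribRES replicate 3 or 4 (0.71 to 0.72), Lamb1 without control replicate 1 or 2 (0.49), and NM_001145151.1 without control replicate 1, 3 or 6, any scribRES library or the filter (1.02 to 1.32), the last also ending the call of Cdh24. Leaving out 1 library gave 5 to 16 (main value 14) for the change of the scribKD minus control difference and 15 to 20 (main value 18) for that of the scribRES minus scribKD difference. Median retention (0.87) ran from 0.57 to 1.21 over all alternatives, and from 0.73 to 1.00 when leaving out 1 library. No member called under the main or the block setting changed direction under any alternative, and the experiment block under the limit changed no call beyond those named with each comparison. Members that vary between experiments, and those below 5 RPKM, were the ones the filter left untested, and depth limits Cdh16 and Cldn16 most. The causes of the changes were not tested.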
